A study of Mus musculus with 11 samples.

Results

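This comparison set 3 pools of XBP1ΔDCIRE1truncDC tumor cDC1s against 4 pools of XBP1ΔDC tumor cDC1s. These 7 pools, of 11 in the series, were chosen by the genotype in their labels. The comparison asked what the loss of the IRE1 RNase changed in cells that already lacked XBP1, and it covered the 10951 genes, of 24421 counted, that were above 1 CPM (counts scaled to the depth of the pool) in at least 4 of the 11 pools. cDC1s (conventional type 1 dendritic cells) were sorted from mice bearing B16 tumors, a melanoma line of the mouse, and each pool held cells of 2 to 4 mice. RNA was amplified by the SMART-seq method and sequenced, and reads were counted per gene.

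All mice were of C57BL/6 background, of both sexes, and carried floxed *Xbp1*. In XBP1ΔDC mice (XBP1 fl/fl, CD11c-CRE), Cre driven by the *Itgax* (CD11c) promoter removed exon 2 of *Xbp1*. In XBP1ΔDCIRE1truncDC mice, which also carried IRE1 fl/fl, the same Cre also removed exons 20 and 21 of the 22 exons of *Ern1*, which leaves an IRE1 protein without RNase activity. The 4 control pools carried no Cre. Control replicates 1 to 3 were XBP1 fl/fl and control replicate 4 was XBP1 fl/fl IRE1 fl/fl, so that this last pool carried the floxed *Ern1* allele without its deletion. CD11c is expressed by other dendritic cells and macrophages too, so the deletions were not limited to cDC1s in these mice.

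IRE1, the product of *Ern1*, is a sensor of unfolded proteins in the endoplasmic reticulum (ER). Its RNase domain cuts *Xbp1* mRNA, and the religated mRNA encodes XBP1s, a transcription factor for chaperones, the translocon and other parts of the secretory pathway. The same RNase can cut other mRNAs at the ER membrane, which are then degraded, a process called regulated IRE1-dependent decay (RIDD). Cells that lack XBP1s are known to raise IRE1 activity, and cDC1s are a cell type in which RIDD has been described. Both groups compared here carried the *Xbp1* deletion. They differed by the floxed *Ern1* allele with its RNase deletion and, as given below, in the mix of sexes.

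IRE1 cuts RNA within a loop of 7 bases held by a short stem. *Xbp1* mRNA holds a pair of such loops at the ends of the stretch that IRE1 removes, and they are shown as the reference for the called genes that hold a like loop. They were read from the GENCODE transcripts (annotation vM21, build GRCm38, which is mm10) as the letters CNGCAGN with at least 4 Watson-Crick pairs in the flanking bases, on the sense strand only, in the coding transcript with the longest coding part. Each line gives the loop in capitals with 9 bases on either side.

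Xbp1, exon 4, coding, chr11:5524267-5524291, plus strand: ctgctgagtCCGCAGCactcagact

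Xbp1, exon 4, coding, chr11:5524293-5524317, plus strand: tgtgcacctCTGCAGCaggtgcagg

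Bloc1s1, exon 4, coding, chr10:128920002-128920026, minus strand: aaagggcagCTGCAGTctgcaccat

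Notch4, exon 21, coding, chr17:34582849-34582873, plus strand: cggtgtcacCCGCAGTgtgactctg

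Slc1a5, exon 1, coding, chr7:16782416-16782440, plus strand: cccctgtgcCCGCAGTgcaccaacc

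The last 3 belong to genes that passed the test of this comparison. Their stems have 4 pairs in *Bloc1s1* and *Slc1a5* and 5 in *Notch4*, against 6 and 7 in *Xbp1*. Such a loop was found in 3 of the 8 genes called (37.5%), against 3.47% of the 10643 genes tested that had a transcript and 3.06% of those with transcripts in the same range of length. Of the 78 RIDD targets of the literature list described below, 9 held the loop (11.5%), and of the 60 XBP1s targets 1 did (1.67%). The core letters CTGCAG alone were in 85.5% of all transcripts. A match describes the letters of a transcript and does not show that IRE1 cuts there.

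Depth was similar in both groups. XBP1ΔDC pools had 21889074 to 25334289 counts in total and XBP1ΔDCIRE1truncDC pools 21089065 to 26019797, and the TMM scaling factors ran from 0.966 to 1.03 over the 11 pools. The 18 cDC1 identity genes, with *Xcr1*, *Clec9a*, *Batf3* and *Irf8* among them, were all tested, none was called, and their median log2 fold change was 0.03. With unadjusted p under 0.05, 2 of them were higher and 1 lower, against 2.79% and 2.50% of all genes. Markers of other cells were detected. The 14 macrophage and monocyte markers, of which dendritic cells express several such as *Lyz2* and *Ccr2*, summed to 1006 to 1854 CPM in XBP1ΔDCIRE1truncDC and 1233 to 1728 CPM in XBP1ΔDC pools, and *Adgre1*, which encodes F4/80, was at 1.92 to 7.81 CPM in these 7 pools. The summed level of 10 melanoma markers was 8.997 to 12.002 CPM in XBP1ΔDCIRE1truncDC pools and 13.03 to 66.0 CPM in XBP1ΔDC pools, with the 4 control pools at 9.63 to 62.4 CPM. The 7 fibroblast markers summed to 2.33 to 3.52 CPM and 6.49 to 37.96 CPM in the same order. The B cell markers summed to 1.04 to 3.26 CPM and 2.79 to 4.17 CPM, with *Pax5* at 0 and *Bank1* detected in all 11 pools. The sexes were mixed unequally, since *Xist*, a transcript of female cells, had 0, 1030 and 10 counts in XBP1ΔDCIRE1truncDC replicates 1 to 3 and 417 to 1833 counts in XBP1ΔDC pools. XBP1ΔDCIRE1truncDC replicate 1 had the highest sums of T cell and NK cell markers, 10.7 and 8.33 CPM, against at most 2.01 and 3.02 CPM in XBP1ΔDC pools. Apart from a fit with the Y-linked level as a covariate, given at the end, the part of these levels in the results was not tested.

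In the fit of all pools 8 genes were called higher and none lower in XBP1ΔDCIRE1truncDC against XBP1ΔDC cDC1s. A call needed an adjusted p under 0.05 (edgeR's quasi-likelihood test, Benjamini-Hochberg over the 10951 genes) and a fold change above 1.5. The absence of lower genes rests on the fit. Fits with only the 7 pools compared, or without control replicate 4, called *Arf2* and *Cyb561* lower, and DESeq2 called 10 genes lower. Other fits tried called no lower gene, apart from *Xist* without XBP1ΔDCIRE1truncDC replicate 2. The 8 DEGs (differentially expressed genes) of the fit of all pools are 0.0731% of the genes tested. They encode an integrin subunit (*Itgb2*), an Fc receptor-like protein of the ER (*Fcrla*), an amino acid transporter (*Slc1a5*), an ER-phagy receptor (*Fam134c*), a Notch receptor (*Notch4*), a secreted and membrane-bound fibrinogen-like protein (*Fgl2*), a ubiquitin ligase (*Rnf130*) and a subunit of lysosome-related complexes (*Bloc1s1*). In all 8 every XBP1ΔDCIRE1truncDC pool was above every XBP1ΔDC pool, against 3.11% of all genes. Their choice by p in this comparison favours such a gap, so nothing is read from this share.

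*Itgb2* encodes CD18, the beta chain of the leukocyte integrins, and lies at chr10:77530252-77565708. It was at 226, 301, 241 and 301 CPM in XBP1ΔDC replicates 1 to 4 and at 997, 923 and 828 CPM in XBP1ΔDCIRE1truncDC replicates 1 to 3. The controls were at 842, 809, 819 and 855 CPM and overlapped the latter group. It rose 3.43-fold, by 1.78 ± 0.105 on the log2 scale, where ± is the standard error as in all log2 values given here (edgeR, adjusted p = 4.97e-06).

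*Fcrla* (chr1:170917576-170927583) had the largest fold change of the 8. Its level was 13.4, 20.1, 14.9 and 15.3 CPM in XBP1ΔDC and 90.3, 61.4 and 101 CPM in XBP1ΔDCIRE1truncDC pools. Control pools were at 62.1, 53.1, 67.7 and 66.9 CPM, so that 2 of the 3 XBP1ΔDCIRE1truncDC pools were above every control. It rose 5.29-fold, by 2.40 ± 0.176 on the log2 scale (edgeR, adjusted p = 3.23e-05).

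*Slc1a5*, a transporter of glutamine and other neutral amino acids (chr7:16781340-16798274), was at 109, 111, 101 and 109 CPM in XBP1ΔDC pools. It was at 215, 206 and 201 CPM in XBP1ΔDCIRE1truncDC and at 203, 208, 184 and 185 CPM in control pools. The spread within each group was small and the groups compared were far apart. It rose 1.93-fold, by 0.95 ± 0.0735 on the log2 scale (edgeR, adjusted p = 4.36e-05). *Slc1a5*, *Itgb2* and *Fcrla* were called in all 19 alternative analyses, and the other 5 were not.

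*Fam134c*, now named *Retreg3*, encodes a receptor that takes parts of the ER into autophagosomes (chr11:101096322-101119893). It was at 18.6, 18.02, 14.1 and 18.2 CPM in XBP1ΔDC pools, at 39.1, 32.7 and 36.9 CPM in XBP1ΔDCIRE1truncDC pools and at 33.6, 37.3, 42.2 and 38.9 CPM in controls. It rose by 1.07 ± 0.127 on the log2 scale (edgeR, adjusted p = 0.00391). The gene lies 5.27 Mb from *Ern1*, and control replicate 4, which shares the floxed *Ern1* allele, was within the range of the other controls for it.

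*Notch4*, a receptor of the Notch family best known from endothelium (chr17:34564268-34588503), was at 19.6, 22.4, 19.2 and 15.4 CPM in XBP1ΔDC pools. It was at 40.2, 33.4 and 43.5 CPM in XBP1ΔDCIRE1truncDC and at 42.6, 47.9, 52.9 and 42.4 CPM in control pools. All 4 XBP1ΔDC pools were clear of the pools of the other groups. It rose by 1.03 ± 0.142 on the log2 scale (edgeR, adjusted p = 0.0164).

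*Fgl2* lies at chr5:21372642-21378374. It was at 794, 792, 786 and 734 CPM in XBP1ΔDC and at 1173, 1727 and 1138 CPM in XBP1ΔDCIRE1truncDC pools, where replicate 2 stood above the other pools. The controls were at 1399, 1234, 1456 and 1369 CPM. It rose by 0.79 ± 0.122 on the log2 scale (edgeR, adjusted p = 0.041).

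*Rnf130* (chr11:50025346-50104758) was at 69.9, 84.2, 58.6 and 65.8 CPM in XBP1ΔDC pools. It was at 129.5, 107 and 139 CPM in XBP1ΔDCIRE1truncDC and at 167, 164, 129 and 147 CPM in control pools, and it rose by 0.85 ± 0.134 on the log2 scale (edgeR, adjusted p = 0.041). The gene is on the chromosome of *Ern1* but 56.3 Mb from it.

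*Bloc1s1* (chr10:128917882-128924035), a subunit shared by the BLOC-1 and BORC complexes of endosomes and lysosomes, is a RIDD substrate widely used as a marker. It was at 19.2, 23.1, 14.4 and 19.1 CPM in XBP1ΔDC pools, at 34.1, 36.1 and 41.9 CPM in XBP1ΔDCIRE1truncDC pools and at 40.6, 34.8, 32.0 and 31.4 CPM in controls. It rose by 0.98 ± 0.155 on the log2 scale (edgeR, adjusted p = 0.041). The calls of *Fgl2*, *Rnf130* and *Bloc1s1* were close to the threshold. Each was lost in at least 8 of the 19 alternatives, with adjusted p values up to 0.278.

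**Figure D1:**
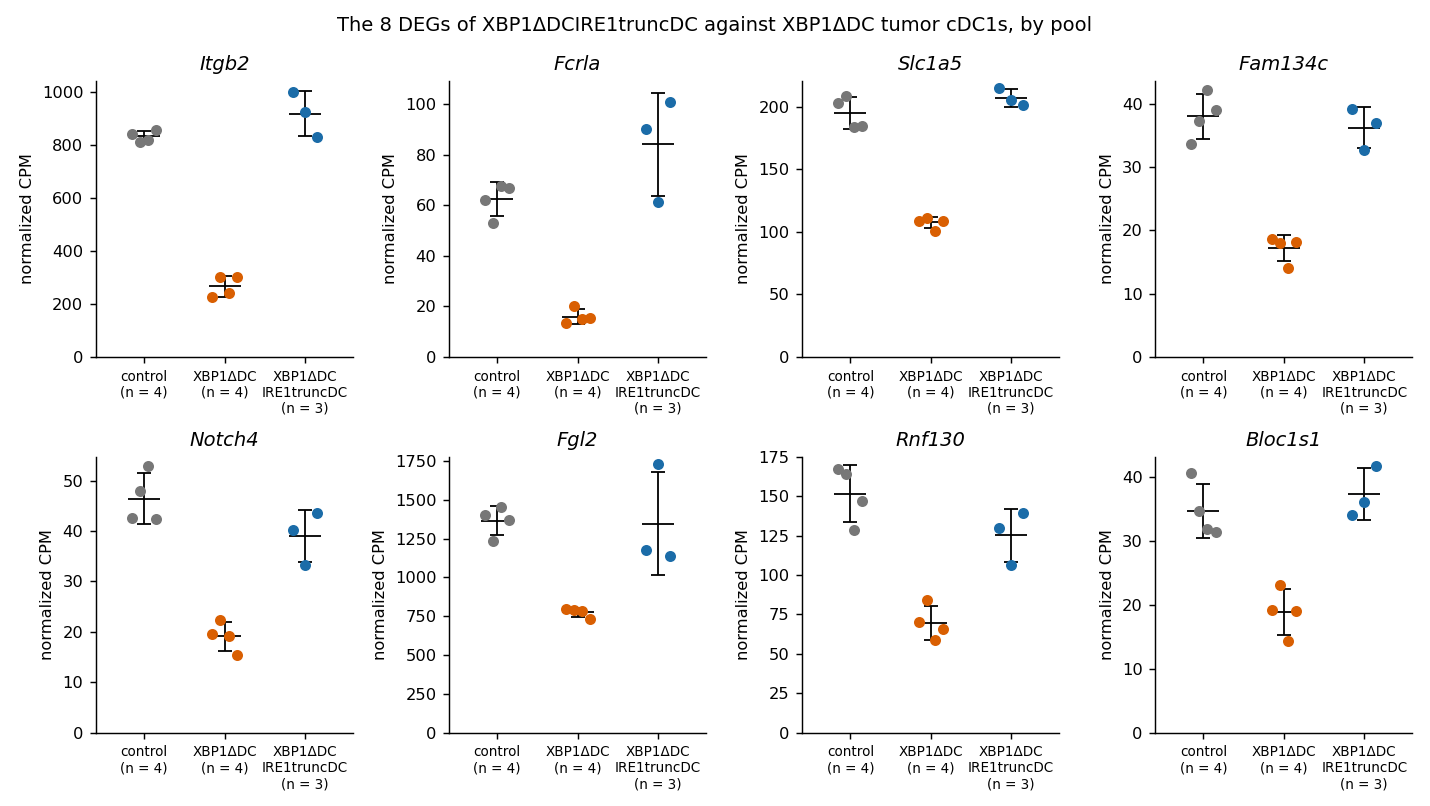
Normalized CPM (vertical axes, from 0) of the 8 DEGs in each pool. Points are pools, horizontal lines are group means and bars are 1 SD, and in each panel the 4 XBP1ΔDC pools sit below all pools of the other groups.

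The 8 genes were also lower in every XBP1ΔDC pool than in every control pool, with log2 differences from control of -1.97 to -0.81. The same held for 3.67% of all genes and for 28.9% of those higher with p under 0.05. Choice of genes by low values in the XBP1ΔDC pools favours it. XBP1ΔDCIRE1truncDC pools overlapped the control pools for each of the 8 genes. Their log2 differences from control ran from -0.28 to 0.43, and none passed the test, with adjusted p values of 0.352 to 0.975 from edgeR. These values share the XBP1ΔDC, XBP1ΔDCIRE1truncDC and control pools with each other and are given side by side, not as independent results. An adjusted p above the threshold does not show that XBP1ΔDCIRE1truncDC and control cells were alike. Of the 8 genes, 5 overlap another annotated gene in GENCODE vM21, none of which was itself above the filter. The overlap of *Bloc1s1* is with *Rdh5* on the same strand, and the strand used in counting was not given in the sources used here.

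Over all genes, small p values fell on both sides. Without adjustment 305 genes (2.79%) had p under 0.05 and were higher, and 274 genes (2.50%) were lower. The median log2 fold change of all genes was 0.00 and the median standard error 0.165. Among the 50 genes with the smallest p, 41 were higher in XBP1ΔDCIRE1truncDC, and the first lower gene was at rank 23 by p. With counts scaled by library size alone in place of TMM, the split of genes with p under 0.05 turned to 226 higher of 602, so that it rests on the scaling.

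**Figure D2:**
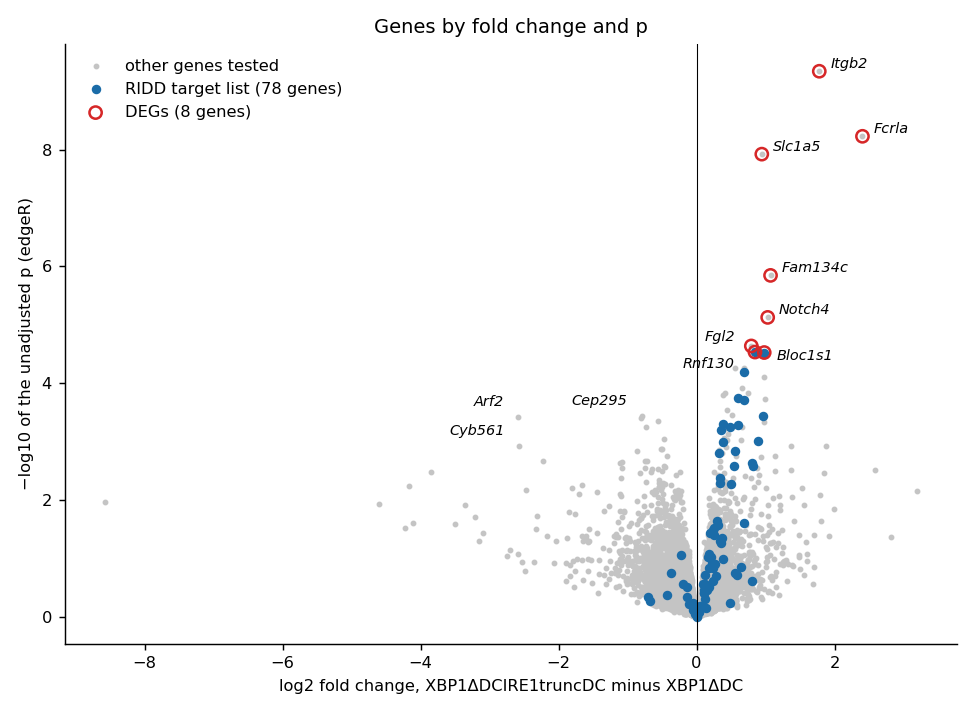
Log2 fold change of XBP1ΔDCIRE1truncDC minus XBP1ΔDC (horizontal axis) and -log10 of the unadjusted edgeR p (vertical axis) for 10951 genes. Red circles mark the 8 DEGs and blue points the 78 RIDD targets tested, of which none lower in XBP1ΔDCIRE1truncDC had p under 0.05.

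The further 12 higher genes with the smallest p, leaving out predicted genes (symbols of Gm numbers or ending in Rik), did not pass the test, with adjusted p values of 0.061 to 0.174 from edgeR and log2 fold changes of 0.38 to 0.99. All 12 were higher in each XBP1ΔDCIRE1truncDC pool than in each XBP1ΔDC pool, against 3.11% of all genes, and their choice by p favours this. *Pkd1*, which encodes polycystin-1, was at 49.4, 49.1, 37.1 and 41.0 CPM in XBP1ΔDC and at 75.3, 64.4 and 73.3 CPM in XBP1ΔDCIRE1truncDC pools (adjusted p = 0.061 from edgeR). *Sharpin*, a subunit of the linear ubiquitin ligase complex, was at 64.9, 63.5, 59.4 and 53.3 CPM against 87.6, 90.6 and 87.7 CPM in the same order (log2 fold change 0.56 ± 0.0938, adjusted p = 0.061 from edgeR). *Dpp7*, a lysosomal dipeptidase, was at 7.57 to 9.60 CPM in XBP1ΔDC and 15.8 to 19.2 CPM in XBP1ΔDCIRE1truncDC pools. *Pkd1* overlaps *Tsc2* on the other strand, which was also tested, so reads of this pair may not be told apart, and *Tapbp* below overlaps *Zbtb22* on its own strand.

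*Tapbp*, which encodes tapasin, the chaperone that joins MHC class I to the peptide transporter, was at 1003, 951, 695 and 768 CPM in XBP1ΔDC pools. It was at 1326, 1316 and 1494 CPM in XBP1ΔDCIRE1truncDC and at 1385, 1212, 1216 and 1136 CPM in control pools. The groups compared did not overlap, but the adjusted p was 0.0639 (log2 fold change 0.69 ± 0.118, edgeR). *Msn*, which encodes moesin, a linker of membrane and actin, was at 980.3 to 1166 CPM against 1309 to 1432 CPM (adjusted p = 0.11 from edgeR). *Msn* is on the X chromosome. The others of the 12 were *Evi2a*, *Cnpy3*, *Blvra*, *Pbxip1*, *Stim2*, *Dpy19l1* and *Ttyh3*.

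Of the 2 genes the crosses target, *Ern1* had more counts in the cells in which its RNase exons were floxed out. It was at 9.74, 15.6, 12.9 and 11.5 CPM in XBP1ΔDC and at 21.4, 17.0 and 25.99 CPM in XBP1ΔDCIRE1truncDC pools, a log2 difference of 0.79 ± 0.228 (edgeR, adjusted p = 0.491). The deleted exons 20 (chr11:106400195-106400318) and 21 (chr11:106399772-106399839) have 124 and 68 bases, and counts over the whole gene do not show their loss. *Xbp1* was at 130.1, 152, 161 and 165 CPM against 212, 236 and 179 CPM, with 244, 249, 254 and 271 CPM in controls. That is a log2 difference of 0.46 ± 0.104 (edgeR, adjusted p = 0.233). Exon 2 of *Xbp1* (chr11:5521923-5522019, 97 bases) was deleted in both groups.

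RIDD targets were taken from a list of 79 genes that the study drew from the literature. Of these, 78 were tested, and *Col18a1* was below the filter. In XBP1ΔDCIRE1truncDC cells 28 of them had an unadjusted p under 0.05 and were higher and 0 were lower, against 2.79% and 2.50% of all genes. In all 64 of the 78 had a positive log2 fold change (82.1%, against 50.4% of all genes) and the median was 0.24, where that of all genes was 0.00. The DEGs among them were *Rnf130* and *Bloc1s1*. The 14 members with a negative value had p of at least 0.0889.

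Of the RIDD list, 29 members were higher in every XBP1ΔDCIRE1truncDC pool than in every XBP1ΔDC pool and 0 were lower in every pool, against 3.11% and 2.96% of all genes. Of the 28 members with p under 0.05, 21 were lower in every XBP1ΔDC pool than in every control pool. The same held for 28.9% of all genes that were higher with p under 0.05, whose choice by low values in the XBP1ΔDC pools favours it. Their log2 fold changes ran from 0.19 to 0.98. *Plbd2*, a lysosomal phospholipase B-like protein, was at 50.3, 43.0, 43.0 and 34.2 CPM in XBP1ΔDC and at 58.6, 69.3 and 66.1 CPM in XBP1ΔDCIRE1truncDC pools (log2 fold change 0.60 ± 0.131, adjusted p = 0.197 from edgeR). *Furin*, a protease of the trans-Golgi, was at 113 to 147 CPM against 164 to 206 CPM (log2 fold change 0.48), and it holds a loop of the kind shown above. *Blvra*, biliverdin reductase, was at 26.9 to 31.8 CPM against 37.99 to 48.6 CPM. Of the 9 list members with the loop, 4 were among the 28 with p under 0.05, namely *Bloc1s1*, *Furin*, *Limd2* and *Ppp1r15b*.

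**Figure D3:**
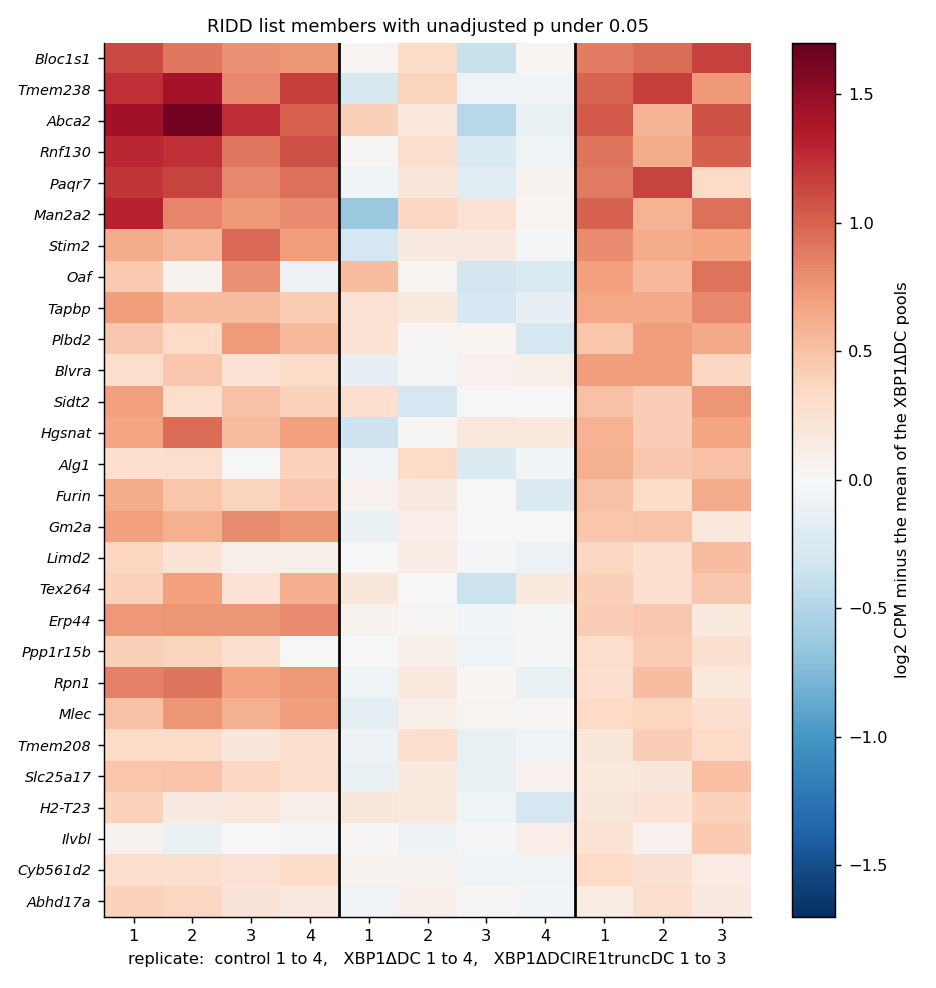
The 28 RIDD list members with unadjusted p under 0.05 (rows) in each pool (columns), as log2 CPM minus the mean of the XBP1ΔDC pools (colour). Control pools on the left and XBP1ΔDCIRE1truncDC pools on the right are mostly red, above the XBP1ΔDC pools in the middle, as the choice of these members by p sets for the latter.

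The study names 12 RIDD targets in these cells, 10 of which are in the list above. They were chosen on these samples, so their direction is not independent evidence. All 12 were higher in XBP1ΔDCIRE1truncDC with an unadjusted p under 0.05, with log2 fold changes of 0.33 to 1.78 and a median of 0.76, and 3 of them (*Itgb2*, *Rnf130* and *Bloc1s1*) were DEGs. The 68 tested members outside these 12 had 18 genes with p under 0.05, all higher, and a median of 0.18.

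Among those of the 12 that did not pass, *Stim2*, a calcium sensor of the ER, was at 18.8, 25.5, 25.6 and 22.7 CPM in XBP1ΔDC and at 40.1, 35.5 and 36.7 CPM in XBP1ΔDCIRE1truncDC pools (adjusted p = 0.111 from edgeR). *Tmem238* was at 5.21, 8.19, 6.05 and 6.13 CPM against 12.5, 14.3 and 10.5 CPM, the largest log2 fold change of these at 0.96 ± 0.2. *Abca2*, a lipid transporter of the lysosome, was at 11.1 to 20.4 CPM against 23.1 to 32.5 CPM (log2 fold change 0.89). *St3gal5*, the enzyme that makes the ganglioside GM3, was at 173 to 219.7 CPM against 250.4 to 269.1 CPM, and *Paqr7* was at 4.29 to 5.62 CPM against 6.08 to 10.8 CPM. *Gm2a*, the activator protein of ganglioside breakdown, was at 2179.6 to 2548 CPM in XBP1ΔDC and 2682 to 3305 CPM in XBP1ΔDCIRE1truncDC pools.

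In 5 of the 12, *St3gal5*, *Rpn1*, *Erp44*, *Mlec* and *Gm2a*, the XBP1ΔDCIRE1truncDC pools lay between both other groups with no overlap, an order found in 0.128% of all genes tested. Since the 12 were named from these samples, nothing is read from this share. *Rpn1*, a subunit of the oligosaccharyltransferase, was at 274, 324, 295 and 266 CPM in XBP1ΔDC, at 351, 417 and 328 CPM in XBP1ΔDCIRE1truncDC and at 524, 544, 465 and 480.4 CPM in control pools. *Erp44*, an ER thiol chaperone, was at 117, 113, 108 and 110.3 CPM, then 149, 155 and 126 CPM, and 187, 188, 188 and 196 CPM in the same order. *Mlec*, an ER lectin, was at 273 to 328 CPM, 375 to 395 CPM and 432 to 513 CPM. *Mlec* is also in the list of XBP1s targets. The log2 differences of XBP1ΔDCIRE1truncDC from control were -0.46 for *Rpn1*, -0.40 for *Erp44* and -0.31 for *Mlec*, and none passed the test (adjusted p = 0.0812, 0.0546 and 0.17 from edgeR).

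XBP1s targets, a list of 60 genes from the same source, held no DEG. Of the 60, 5 had p under 0.05 and were higher and 0 were lower, against 2.79% and 2.50% of all genes. In all 43 of the 60 had a positive log2 fold change (71.7%, against 50.4% of all genes), and the median was 0.06. The median against control was -0.36 in XBP1ΔDC and -0.31 in XBP1ΔDCIRE1truncDC cells. *Cnpy3*, a chaperone of Toll-like receptors, was at 103 to 120.3 CPM in XBP1ΔDC, 139 to 158 CPM in XBP1ΔDCIRE1truncDC and 140.2 to 152 CPM in control pools (log2 fold change 0.41, adjusted p = 0.108 from edgeR). *Dnajb11*, an ER co-chaperone, was at 135 to 155 CPM against 168 to 230.4 CPM (log2 fold change 0.43). *Edem1*, of ER-associated degradation, was at 233 to 252 CPM against 269.7 to 304 CPM. The fifth was *Cflar*, an inhibitor of caspase-8. The log2 fold change of the 51 XBP1s targets that are not RIDD targets had a median of 0.05.

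No DEG was among the other genes of the unfolded protein response. In the lists that follow, counts with p under 0.05 stand against 2.79% of all genes higher and 2.50% lower. Of 13 sensors and factors, 5 had p under 0.05, all higher. Beside *Ern1* and *Xbp1* these were *Eif2ak3*, which encodes the sensor PERK, *Atf6b* and *Nfe2l1*. *Eif2ak3* was at 30.6, 23.4, 25.99 and 34.7 CPM in XBP1ΔDC, 37.1, 40.2 and 36.6 CPM in XBP1ΔDCIRE1truncDC and 42.9 to 52.2 CPM in control pools. Among 22 ER chaperones, 20 had a positive log2 fold change (90.9%, against 50.4% of all genes). With p under 0.05 there were 3 (*Cnpy3*, *Dnajb11* and *Hspa5*), and the median was 0.16. The median of the sensors was 0.23, and without XBP1ΔDCIRE1truncDC replicate 2 both medians were lower, at 0.09 for sensors and 0.07 for chaperones.

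*Hspa5*, which encodes BiP, the main chaperone of the ER, followed another order than the RIDD targets. It was at 1631, 1704, 1647 and 1718 CPM in control, 2134, 2253, 2272 and 2173 CPM in XBP1ΔDC and 2739.8, 3351 and 2406 CPM in XBP1ΔDCIRE1truncDC pools, with no overlap between the 3 groups. The log2 fold change between the groups compared here was 0.36 ± 0.0897 (edgeR, adjusted p = 0.321). Against control, the log2 fold change of *Hspa5* in XBP1ΔDCIRE1truncDC was 0.76 (adjusted p = 0.00314 from edgeR).

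PERK and ATF4 are the arm of the response that acts on translation and amino acid supply. Of their 32 tested targets, 28 had a positive log2 fold change (87.5%, against 50.4% of all genes). Only 3 had p under 0.05, and the median was 0.19. *Chac1*, which degrades glutathione, was at 7.29, 7.45, 3.18 and 8.69 CPM against 10.008, 10.4 and 13.7 CPM. *Eif4ebp1*, a translation inhibitor, was at 69.7 to 73.4 CPM against 79.8 to 106 CPM. *Trib3*, at 6.99 to 9.60 CPM in XBP1ΔDC pools, was at 8.01, 32.2 and 7.61 CPM in XBP1ΔDCIRE1truncDC replicates 1 to 3, so that replicate 2 alone stood apart. Without XBP1ΔDCIRE1truncDC replicate 2 the median of this list was -0.01. Of the 25 genes of ER-associated degradation, 3 had p under 0.05 and were higher (*Herpud1*, *Edem1* and *Sel1l*). Of 18 disulfide isomerases and oxidases 5 did, and of 26 translocon and signal peptidase genes 1 (*Srpr*), with medians of 0.10 and 0.00.

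**Figure D4:**
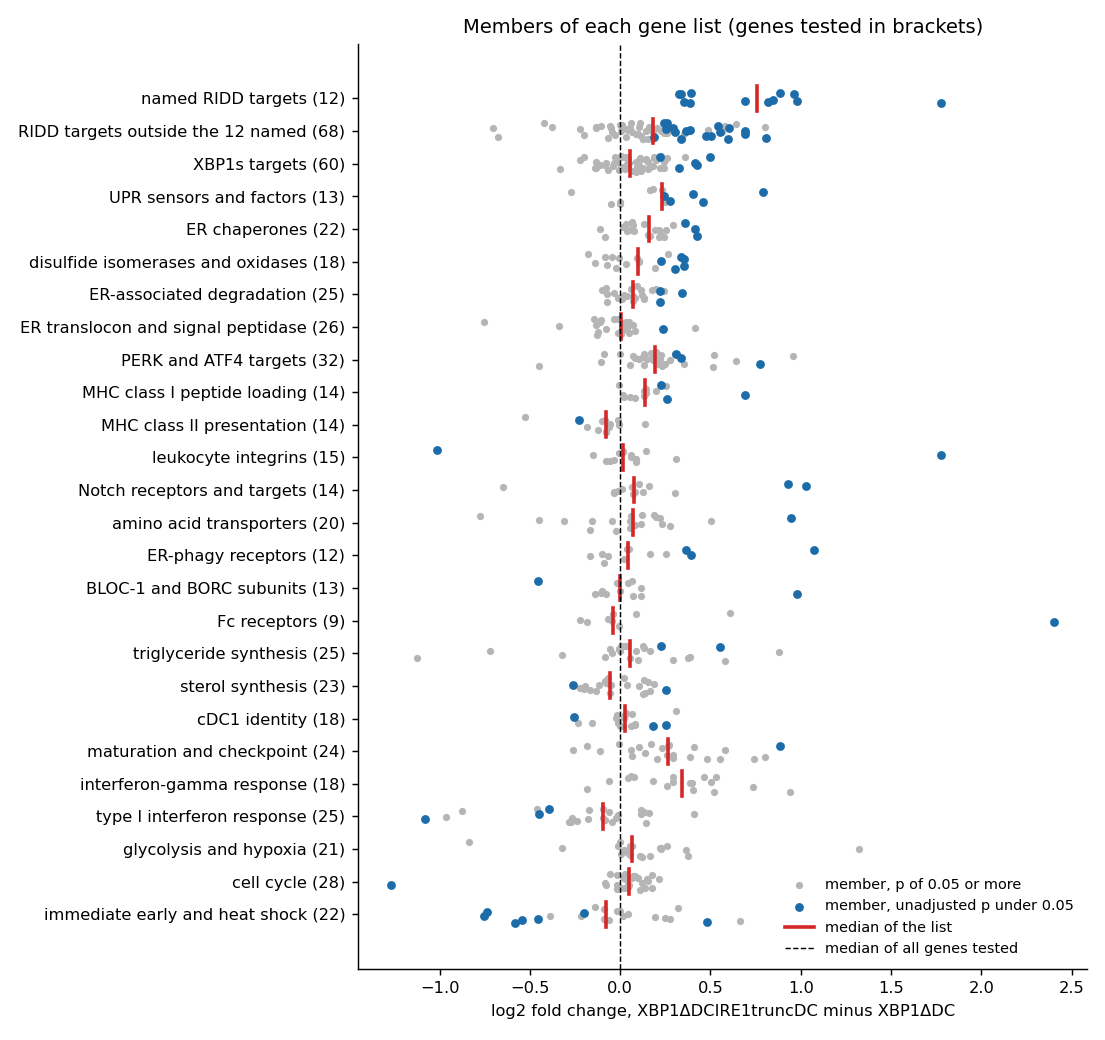
Log2 fold change of XBP1ΔDCIRE1truncDC minus XBP1ΔDC (horizontal axis) for the tested members of each gene list (rows), with members of unadjusted p under 0.05 in blue, list medians in red and the median of all genes as a dashed line. The 12 named RIDD targets, which the study chose on these samples, have a median of 0.76. The 68 RIDD list members outside them have a median of 0.18 and the 60 XBP1s targets of 0.06.

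The DEGs were read beside the families they belong to. Of 15 leukocyte integrin genes tested, *Itgb2* rose and no other was called, and the median was 0.02. *Itgam*, also a marker of other myeloid cells, was lower with p under 0.05, at 2.54 to 12.6 CPM in XBP1ΔDC and 2.98 to 5.52 CPM in XBP1ΔDCIRE1truncDC pools. The pools of both groups overlapped for alpha chains that pair with CD18. *Itgal* was at 178, 257, 205 and 239 CPM against 268, 227 and 207 CPM, and *Itgax* at 169, 159, 184 and 143 CPM against 153, 204 and 154 CPM, with log2 fold changes of 0.09 ± 0.129 and 0.06 ± 0.115.

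Of 14 genes of the Notch pathway, *Notch4* was the DEG and *Jag1*, a ligand, the only other with p under 0.05, at 3.45 to 5.26 CPM in XBP1ΔDC and 7.04, 4.10 and 13.3 CPM in XBP1ΔDCIRE1truncDC pools. *Notch1* and *Notch2* had log2 fold changes of 0.07 and 0.01. Of 20 amino acid transporters, only *Slc1a5* had p under 0.05. Of 9 Fc receptor genes, only *Fcrla* did. Of 12 ER-phagy genes, *Fam134c* was the DEG. *Ccpg1* and *Tex264*, the latter also on the RIDD list, had p under 0.05 with log2 fold changes of 0.39 and 0.37. Of 13 BLOC-1 and BORC subunits, *Bloc1s1* was the DEG, and *Bloc1s5* was the only other with p under 0.05, at 14.2 to 18.03 CPM against 10.3 to 13.3 CPM. In each of these families the member called, *Itgb2*, *Notch4*, *Slc1a5*, *Fcrla*, *Fam134c* or *Bloc1s1*, was higher, while the family's median lay between -0.04 and 0.08. All these small medians moved with single pools, that of the Fc receptors from -0.18 without XBP1ΔDCIRE1truncDC replicate 1 to 0.09 without replicate 2.

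Genes of antigen presentation are given by class. Of 14 genes of MHC class I peptide loading, 13 had a positive log2 fold change (92.9%, against 50.4% of all genes). With p under 0.05 there were 3 (*Tapbp*, *Pdia3* and *H2-T23*), where 2.79% of all genes were higher. The median was 0.14, or 0.07 without XBP1ΔDCIRE1truncDC replicate 3. Counts of *H2-T23* may be shared with related class I genes. Of 14 genes of MHC class II presentation, 13 had a negative value, and *March1*, a ubiquitin ligase that removes class II from the surface, had p under 0.05. It was at 174, 179, 186 and 201 CPM against 161, 150.0 and 162 CPM. The median was -0.08, or -0.03 without XBP1ΔDCIRE1truncDC replicate 2. None of these genes was a DEG.

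Genes of maturation and checkpoint, 24 in all, had a median of 0.26 and 20 positive values (83.3%, against 50.4% of all genes). Only *Cd70* had p under 0.05. Without XBP1ΔDCIRE1truncDC replicate 3 this median was 0.04. The 18 genes of the interferon-gamma response had a median of 0.34 and 16 positive values, and none had p under 0.05 by edgeR. *Iigp1*, an immunity-related GTPase, shows the spread behind it, with 24.98, 201 and 23.5 CPM in XBP1ΔDCIRE1truncDC and 75.2, 12.2, 70.5 and 15.4 CPM in XBP1ΔDC pools. Without XBP1ΔDCIRE1truncDC replicate 2 the median of the interferon-gamma list was -0.13. Of the 25 type I interferon response genes, 3 had p under 0.05 and were lower (*Mx2*, *Mx1* and *Ifih1*), with a list median of -0.09 that ran from -0.34 to -0.00 with XBP1ΔDC replicate 4 or 2 left out. *Mx2* was at 6.52, 6.402, 6.28 and 4.31 CPM against 3.05, 2.66 and 2.61 CPM, with control pools at 2.72 to 5.27 CPM.

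The small p values of heat shock genes were on the lower side. Of 22 immediate early and heat shock genes, 6 had p under 0.05 and were lower (*Hspa1b*, *Hsph1*, *Hspa1a*, *Dnajb1*, *Jun* and *Hspa8*) and 1, *Btg2*, was higher, with a median of -0.08. None of them passed the adjusted test of edgeR, while DESeq2 called *Hspa1b* lower. Over all genes 2.50% were lower and 2.79% higher with p under 0.05. *Hsph1*, a co-chaperone of Hsp70, was at 62.8, 88.8, 65.7 and 102 CPM in XBP1ΔDC, 54.5, 54.6 and 55.2 CPM in XBP1ΔDCIRE1truncDC and 67.5 to 88.4 CPM in control pools. *Hspa1b* was at 819, 674, 794 and 1038 CPM against 451, 686 and 343 CPM (log2 fold change -0.75 ± 0.205, adjusted p = 0.433 from edgeR). *Hspa1a* and *Hspa1b* are near-identical copies, and counting may have split their reads.

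Lipid and growth lists held no DEG. Of 25 genes of triglyceride synthesis, 2 had p under 0.05 and were higher (*Lpin2* and *Srebf1*), with a median of 0.05. Of 23 genes of sterol synthesis, 1 was higher (*Srebf2*) and 1 lower (*Sc5d*), with a median of -0.06. None of 21 genes of glycolysis and hypoxia had p under 0.05. Of 28 cell cycle genes, *Mki67* had p under 0.05. It was at 107, 120.2, 153 and 201 CPM in XBP1ΔDC and at 112, 18.03 and 50.03 CPM in XBP1ΔDCIRE1truncDC pools, so that the groups overlapped.

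In the fit of all 11 pools no gene passed the edgeR test in the lower direction. There 274 lower genes had an unadjusted p under 0.05, and the smallest adjusted p was 0.174. DESeq2 called 10 lower genes, of which *Cep295*, *Arf2*, *Pls3*, *Rev1*, *Cyb561*, *Hspa1b*, *Acta2* and *Nid2* are named in the text. The 12 named lower genes with the smallest p had log2 fold changes of -2.58 to -0.43. All 12 were lower in each XBP1ΔDCIRE1truncDC pool than in each XBP1ΔDC pool, against 2.96% of all genes, and their choice by p favours this. *Cep295*, a centriole protein, was at 14.0, 14.1, 11.2 and 15.3 CPM in XBP1ΔDC and 7.78, 8.43 and 7.43 CPM in XBP1ΔDCIRE1truncDC pools. *Klf10*, a transcription factor induced by TGF-beta, was at 81.7, 65.3, 75.8 and 71.6 CPM against 51.1, 55.6 and 49.6 CPM (adjusted p = 0.31 from edgeR). *Rev1*, a polymerase of translesion synthesis, was at 11.2 to 15.3 CPM against 7.17 to 8.09 CPM. *Pls3*, *AI467606*, *Pcf11*, *Zdhhc13*, *Kctd6* and *Atrn* were the others outside chromosome 11.

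The largest decreases among these 12 were in genes near *Ern1*. *Arf2*, a small GTPase of the Golgi 2.41 Mb from *Ern1*, was at 357, 271, 210.0 and 249 CPM in XBP1ΔDC and 45.0, 51.4 and 39.7 CPM in XBP1ΔDCIRE1truncDC pools. Control replicates 1 to 3 were at 371, 228 and 257 CPM, and control replicate 4, which has the floxed *Ern1* allele and no Cre, was at 35.8 CPM. That pool kept the IRE1 RNase, and the cause of its low *Arf2* level was not tested. *Cyb561*, 0.441 Mb from *Ern1*, was at 4.98 to 8.62 CPM in XBP1ΔDC, 1.09 to 1.26 CPM in XBP1ΔDCIRE1truncDC, 7.55, 8.74 and 12.5 CPM in control replicates 1 to 3 and 0.937 CPM in control replicate 4. *Nsf*, of vesicle fusion, was at 118 to 134 CPM in XBP1ΔDC pools, 75.7 to 93.8 CPM in XBP1ΔDCIRE1truncDC pools and 93.7 CPM in control replicate 4. The adjusted p values of *Arf2*, *Cyb561* and *Nsf* were 0.175, 0.295 and 0.19 from edgeR. Fits without control replicate 4, or with only the 7 pools compared, called *Arf2* and *Cyb561*.

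The genes within 10 Mb of *Ern1* were then counted, a window chosen after these values were seen. Of 225 genes tested there, 19 had p under 0.05 and were higher and 13 were lower, 14.2% in all, against 5.1% of the genes on other chromosomes and 4.83% of those elsewhere on chromosome 11. In 16 of these 32 genes control replicate 4 lay on the side of the XBP1ΔDCIRE1truncDC pools, beyond all 7 pools without the floxed allele. That was so for 20% of the genes with p under 0.05 elsewhere on chromosome 11 and for 11.8% of those on other chromosomes. *Lsm12*, 4.21 Mb from *Ern1*, is an example of a higher gene, at 45.3 to 60.4 CPM in XBP1ΔDC, 81.0, 81.8 and 82.9 CPM in XBP1ΔDCIRE1truncDC and 71.3 CPM in control replicate 4, where the other controls were at 47.6 to 52.1 CPM. Between the groups compared, the floxed *Ern1* allele with the genome around it and the loss of the RNase cannot be told apart. Control replicate 4 is the only pool that has this allele and keeps the RNase, and the part of each was not tested. *Fam134c*, the DEG in this window, did not follow this pattern, and a fit without the genes of the window gave 7 DEGs, all of them among the 8.

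**Figure D5:**
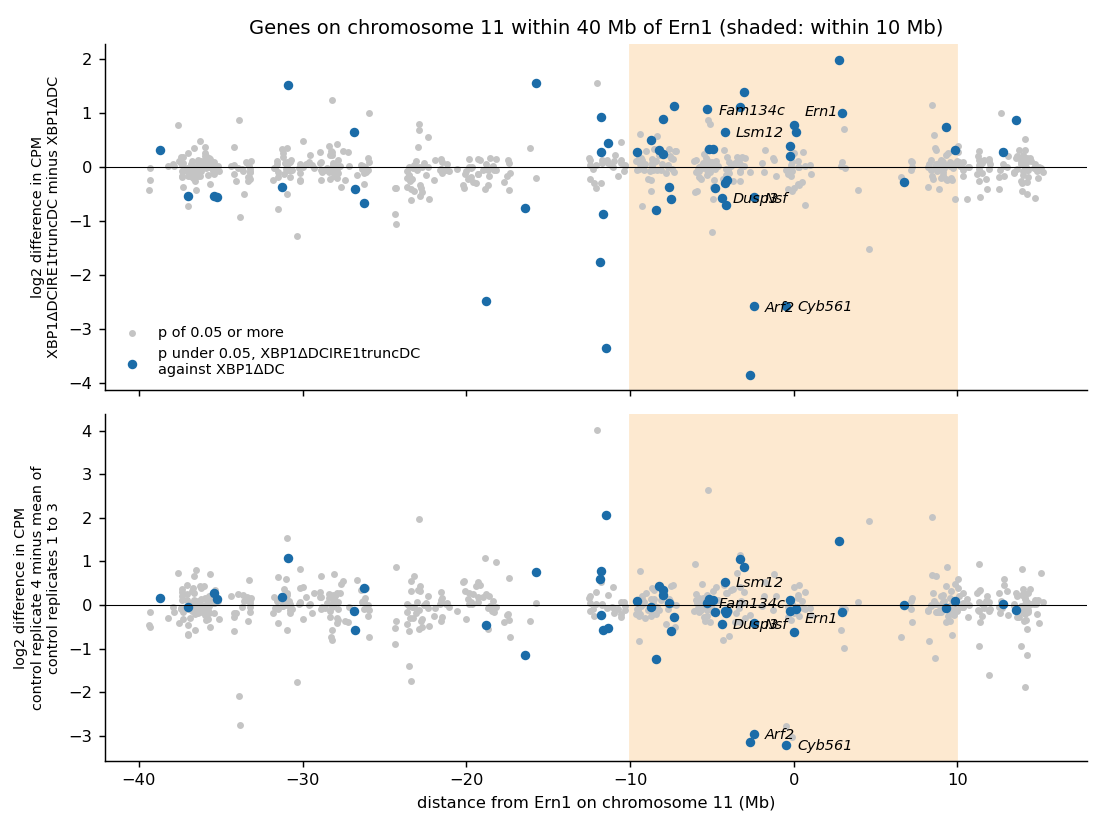
Genes within 40 Mb of *Ern1* on chromosome 11 by distance (horizontal axis, Mb). The upper panel gives the log2 fold change of XBP1ΔDCIRE1truncDC minus XBP1ΔDC and the lower one the log2 CPM of control replicate 4 minus the mean of control replicates 1 to 3, and *Arf2* and *Cyb561* are low in both.

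In XBP1ΔDCIRE1truncDC replicates 1 and 3 *Xist* was lower than in every XBP1ΔDC pool, while replicate 2 was within their range. With the level of 4 Y-linked genes as a covariate, all 8 DEGs were called and 13 genes in all. Genes of stroma and melanoma were among the largest negative values. None passed the test of edgeR, while DESeq2 called the stromal genes *Acta2* and *Nid2* lower. *Col6a3* was at 4.35, 0, 2.18 and 1.397 CPM in XBP1ΔDC pools and at 0 in all 3 XBP1ΔDCIRE1truncDC pools, and *Col1a1* was at 0.320 to 18.2 CPM against 0.508 to 0.792 CPM. *Dct*, a melanoma marker, was at 4.85 to 35.0 CPM against 1.76 to 4.30 CPM, with control pools at 4.11 to 33.4 CPM. Of the 4 melanoma markers tested, 3 had negative values. The other, *Mitf*, was higher, at 0.727 to 1.81 CPM against 1.86 to 2.43 CPM. The part of stromal and melanoma genes in other results was not tested. In bulk samples of this kind, fewer cells of a type and less RNA per cell cannot be told apart.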

How the data were processed

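The authors deposited raw counts per gene. Per the labels and the study's methods, single-end reads of SMART-seq v4 libraries were trimmed with Trimmomatic 0.39, checked with FastQC 0.11.8, mapped to mm10 with STAR 2.7.3a and counted with HTSeqCount. The annotation and strand setting are not given in the sources used here. A normalized table was not used.

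Counts of all 11 pools were fitted with edgeR 4.0.16 in R 4.3.3 (TMM, quasi-likelihood, genotype as the term), for genes above 1 CPM in at least 4 pools, with Benjamini-Hochberg adjustment. Levels are TMM-scaled CPM, and CPM values of different genes are not corrected for length. The limits for a DEG, on the adjusted p and the fold change, were 0.05 and 1.5. The standard error given is the log2 fold change divided by the square root of F. DESeq2 1.42.0 and limma 3.58.1 served as alternatives. Depth was 21089065 to 26843486 counts per pool.

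Each replicate is a pool of 2 to 4 mice by the study's methods. The p values test a difference between groups against the spread between pools within groups. Replicate libraries differed by more than counting noise, since chi-square divided by its degrees of freedom ran from 21.2 to 67.5.

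Named genes were all DEGs, the next 12 in each direction by p (without predicted genes, whose symbols are Gm numbers or end in Rik), *Ern1*, *Xbp1*, the 12 targets the study names and list members with p under 0.05 (at most 6) or of core function. *Lsm12*, *Trib3*, *Iigp1*, *Hspa5* against control, *Adgre1*, *Mitf*, *Col6a3* and other stromal genes were picked with their values known. Members and lists were chosen with earlier results of these data known. Gene positions and transcripts are from GENCODE vM21 (GRCm38), in which 24012 of 24421 symbols matched.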

Additional observations from a re-analysis of the deposited data

Results flagged for a closer look

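In 5 of 84 groups of 4 pools checked, the lowest or highest pool stood apart from the other 3 by Dixon's criterion at the 95% level. Chance alone gives about 1 in 20 such groups.

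*Fam134c* in XBP1ΔDC replicate 3 was at 14.1 CPM, with the other XBP1ΔDC pools at 18.02 to 18.6 CPM. *Fgl2* in XBP1ΔDC replicate 4 was at 734 CPM, with the others at 786 to 794 CPM. Both pools were on the far side from the XBP1ΔDCIRE1truncDC pools. *Fam134c* was called without XBP1ΔDC replicate 3. *Fgl2* was not called without XBP1ΔDC replicate 4, nor without XBP1ΔDC replicate 1, 2 or 3.

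The other 3 were control pools. *Pbxip1* was at 83.4 CPM in control replicate 2 and at 93.5 to 95.2 CPM in the other controls. *Kctd6* was at 12.9 CPM in control replicate 3 and at 8.26 to 8.93 CPM in the others. *Erp44* was at 196 CPM in control replicate 4 and at 187 to 188 CPM in the others.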

How the results depend on the processing

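*Itgb2*, *Fcrla* and *Slc1a5* were called in all 19 alternatives, with adjusted p values of at most 0.000691, 0.00217 and 0.00214 by the tool of each alternative (edgeR, DESeq2 or limma). *Fam134c* was called in 17 of the 18 that tested it, *Notch4* in 13 of 19, *Rnf130* in 11, and *Bloc1s1* and *Fgl2* in 10 each, and all 8 were higher in each alternative. The 8 DEGs became 36 with DESeq2 (26 higher, 10 lower, all 8 included) and 13 with the Y-linked level as a covariate, an alternative added after seeing the data. Leaving out 1 pool at a time gave 4 to 10 DEGs, with 4 without XBP1ΔDC replicate 1 or 3, 5 without XBP1ΔDC replicate 4 or XBP1ΔDCIRE1truncDC replicate 1 or 3, and 10 without XBP1ΔDCIRE1truncDC replicate 2. With only the 7 pools compared, 6 genes were called, *Arf2* and *Cyb561* lower among them. The median log2 fold change of the RIDD list was 0.19 to 0.27 with 1 pool left out and 0.18 without the 12 named targets, and that of the XBP1s list 0.02 to 0.09 with 1 pool left out. Between 20 and 30 RIDD targets were higher with p under 0.05 in every alternative.

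The replicate numbers did not pair the pools, since same-numbered pools had correlations of deviations from -0.26 to -0.142. With the replicate number as a block, 3 DEGs remained, all among the 8, and the RIDD median was 0.19. With library size in place of TMM the median of all genes was -0.03. Over the alternatives run for 42 genes (the 8 DEGs, the next 12 in each direction, *Ern1*, *Xbp1* and the targets the study names), none changed direction, 731 values stayed on their side of the threshold, 33 were lost and 29 gained. The cause of these changes was not tested. Most of the 42 genes were chosen by p or named on these same samples. The alternatives reuse the same pools, so an unchanged direction is favoured and is not independent evidence. With 3 pools against 4 and a median standard error of 0.165, differences of small size in single genes were not detectable at this depth.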
